A study of Mus musculus with 48 samples.

Results

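The change of polyadenylated nuclear RNA between 60 and 120 min of a transcription block was measured gene by gene in mouse embryonic stem cells. Its samples are the 3 nuclear libraries labelled 60 min and the 3 labelled 120 min, of 48 libraries in the series, and its members are the genes with a value in all 6 of them. That left 14862 of the 21203 genes listed in at least 1 of the 6, out of 23862 genes in the series. The 6341 genes listed in some but not all of the 6 libraries were not tested. The values are ratios to the 0 min level of that fraction, so that 1 stands for an unchanged level since drug addition, and a difference of 1 on the log2 scale between the times is a doubling.

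All cells were of the line E14TG2a, grown in 2i + LIF medium, which holds inhibitors of the MEK and GSK3 kinases that keep stem cells in the naive state. Both groups received 1 µM flavopiridol, and they differed in the time since its addition, 60 or 120 min. The labels describe 3 independently passaged cultures. Nuclei were what remained after digitonin and a stronger detergent had released the cytosolic and the membrane-bound RNA, and the whole-cell extract (total), the cytosol and the membrane fraction were sequenced alongside at 30, 60, 120 and 240 min. E14TG2a is a single cell line, and the 0 min libraries that set every ratio were not analysed here.

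Flavopiridol inhibits CDK9, the kinase of P-TEFb, which releases RNA polymerase II from its pause just after the start of a gene. Polymerases that have already left the pause continue to the end of the gene, so a long gene can still yield finished transcripts after the block. A transcript enters a polyadenylated library once its end has been cleaved and tailed, and it leaves the nuclear pool by export to the cytoplasm or by nuclear decay. The levels below are therefore sums of arrival and loss, and the loss of RNA from the nucleus by export cannot be told apart from its decay there.

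The 6 libraries listed between 17886 and 18776 genes each. The files state no depth, but the values of each gene stood in whole-number ratios between nuclear libraries for 19053 of 19053 genes tried. The smallest whole numbers in those ratios, which are a lower guide to the reads behind a value if the authors counted whole reads, summed to 5378824 to 5577576 per library at 60 min and to 5756077 to 5855984 at 120 min. All 9 markers of naive stem cells had values in all 6 libraries, against 2 of 7 fibroblast feeder markers, 2 of 5 of primitive endoderm, 3 of 3 of early mesoderm and 2 of 3 of neural ectoderm. Col1a2, Col3a1, Lum, Dcn and Postn of the feeder list and Gata4, Sox17 and Foxa2 of the endoderm list were not in all 6 libraries. Ratios do not tell how abundant a marker is. Malat1, a long noncoding RNA that stays in the nucleus, had nuclear ratios of 0.344, 0.14 and 0.168 at 60 min and of 0.13, 0.149 and 0.0887 at 120 min. In total RNA it had 1.09, 1.12 and 1.47 at 60 min and 1.26, 1.47 and 1.14 at 120 min, so a nuclear RNA was far below its 0 min level in the nuclear libraries and above it in whole cells. The part of this in the results below was not tested.

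Most genes had less nuclear RNA at 120 than at 60 min. Library medians of the log2 ratio over the 14862 genes averaged -0.69 ± 0.12 at 60 min (SD, n = 3), and those at 120 min averaged -1.05 ± 0.09, and 24.3% of genes had a positive difference. With limma, 2583 genes fell (17.4% of those tested) and 191 rose (1.29%) at a Benjamini-Hochberg adjusted p under 0.05, and the median difference was -0.33. For every called gene the 3 values of one time did not overlap with those of the other. The calls were made from these same values, so the separation is no further support for them. The share of genes without overlap among all genes tested is not given here. The 191 genes that rose had a median difference of 1.05, and 138 of them had ratios above 1 in all 3 libraries at 120 min. That is above the 0 min level on the authors' scaling, and the genes were called by these same 120 min values. Among the genes that fell, 11 were above 1 in all 3. The smallest whole numbers averaged under 10 in 48 of the genes that rose and in 314 of those that fell, compared with 25.6% of all genes tested.

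These counts depended on the scaling and on single libraries. With libraries centred to a common median, 1211 genes fell against 734 that rose, so that the share of calls that were rises went from 6.89% to 37.7%. Scaled to mitochondrially encoded mRNAs, 2956 fell and 57 rose, and scaled to cytosolic ribosomal protein genes, 1201 fell and 188 rose. The median difference of all genes was -0.04, -0.73 and -0.19 under these scalings, against -0.33. Leaving out 1 library at a time gave 280 fallen and 47 risen genes without replicate 1 of 60 min, 899 and 70 without replicate 2 and 73 and 12 without replicate 3. It gave 2016 and 123, 596 and 43, and 577 and 60 without replicates 1, 2 and 3 of 120 min.

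Rises were most frequent among long genes. Of the 1412 genes spanning 100 kb or more, introns included, 78 rose (5.52%) and 115 fell (8.14%). Of the 13410 shorter genes 113 rose (0.843%) and 2458 fell (18.3%), against 1.29% and 17.4% over all genes. The median difference was -0.01 in the long group and -0.36 in the shorter one.

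The change went from a fall to a rise in steps along the length classes. For genes under 10 kb the library medians were -0.83, -0.91 and -0.70 at 60 min and -1.12, -1.23 and -1.32 at 120 min. All 3 libraries at 120 min lay below those at 60 min, and the median difference over the 6174 genes was -0.37. It was -0.41 for 3919 genes of 10 to 30 kb, -0.33 for 2182 genes of 30 to 60 kb and -0.27 for 1135 genes of 60 to 100 kb. For 926 genes of 100 to 200 kb it was -0.08, with library medians that overlapped between the times, since -0.32 in replicate 1 at 120 min lay above -0.35 in replicate 2 at 60 min. Above 200 kb the sign turned. The 245 genes of 200 to 300 kb had a median difference of 0.08 and the 241 genes of 300 kb or longer one of 0.11. The library medians of the longest class were -0.04, -0.20 and -0.05 at 60 min and 0.14, 0.16 and -0.11 at 120 min, so the groups overlapped through replicate 3 of 120 min. The difference of the means of these library medians was 0.16 with a standard error of 0.10, and the medians of the longest classes turned under the mitochondrial scaling, to -0.28 for genes of 300 kb or longer and -0.31 for those of 200 to 300 kb. Replicate 1 of 120 min stood apart in that scaling, with a median log2 ratio of the mitochondrial mRNAs of 1.32 against 0.49 and 0.17 in the other two. Without it the mitochondrial scaling gave 0.02 and -0.02 for these classes.

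The contrast between long and short genes within a library does not depend on the scaling. The median log2 ratio of genes of 300 kb or longer exceeded that of genes under 10 kb by 0.79, 0.71 and 0.66 in the nuclear libraries at 60 min and by 1.26, 1.39 and 1.21 at 120 min. The 3 later values lay above the 3 earlier ones, with means of 0.72 ± 0.07 and 1.29 ± 0.10 (SD, n = 3). An exact permutation test of 3 against 3 cannot go below p = 0.10 and was not run. At 30 min the contrast was 0.43 ± 0.07 and at 240 min 1.97 ± 0.06, so it grew from each time to the next by more than the spread between libraries.

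**Figure D1:**
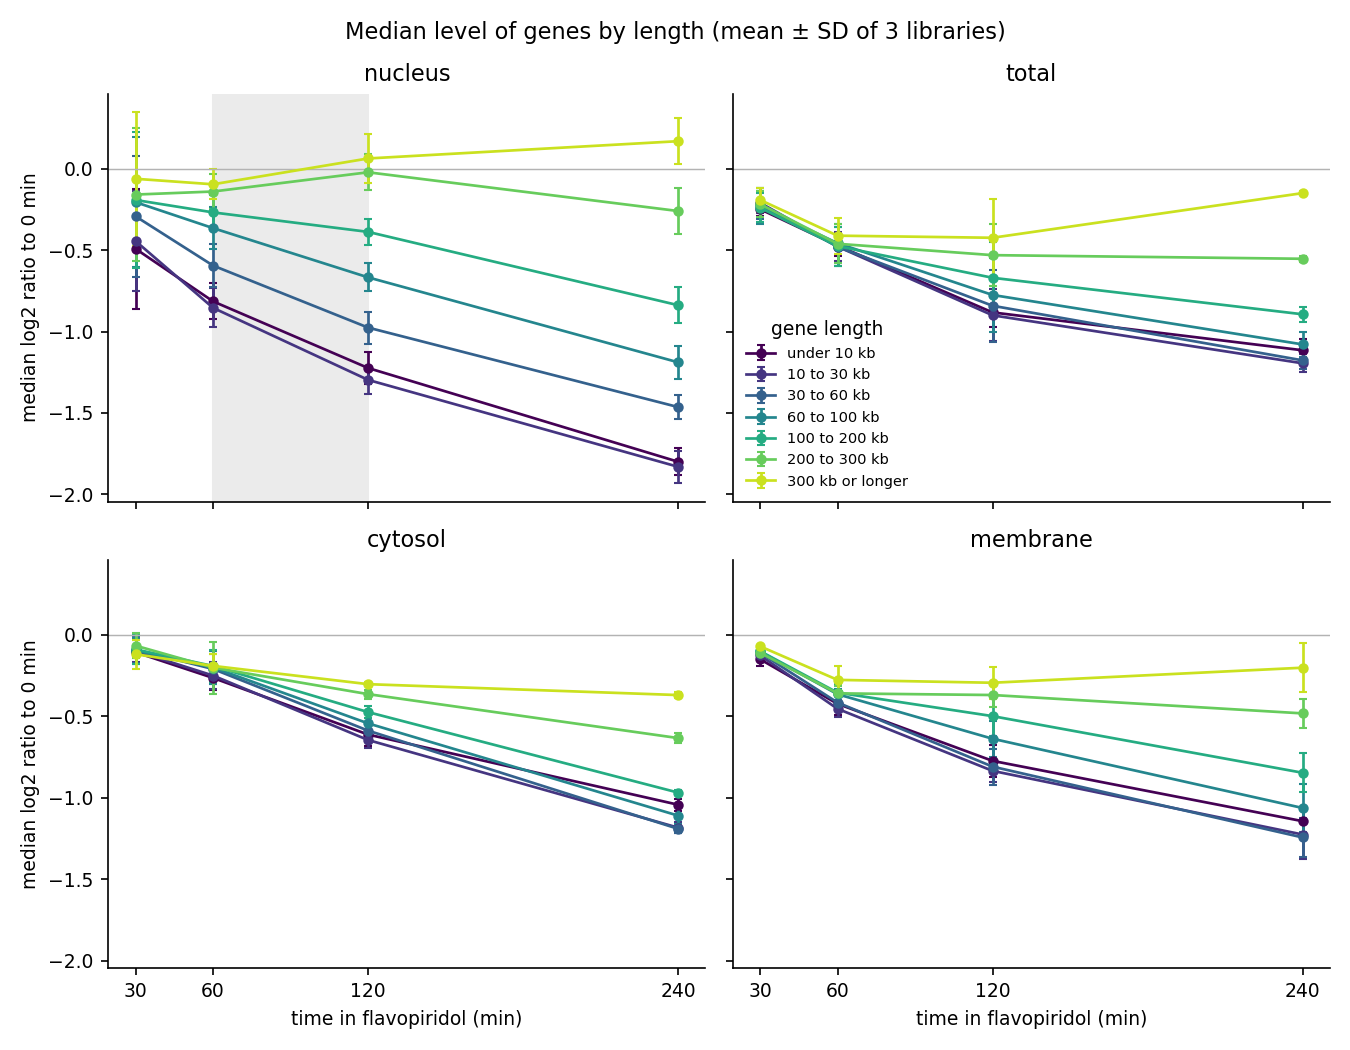
Median log2 ratio to 0 min of genes in 7 length classes (colours) against time in flavopiridol, in the nucleus, total RNA, cytosol and membrane fraction, for the 14862 genes tested in the nucleus; points and bars are the mean ± SD of 3 library medians, and the shaded band marks 60 to 120 min. In the nucleus the classes are already spread at 60 min and only those above 200 kb go up by 120 min, while in the other fractions they lie together at 60 min and separate at 120 and 240 min.

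The courses over the whole series differed by length class. Genes of 200 to 300 kb had a mean of library medians of -0.14 ± 0.11 at 60 min, -0.02 ± 0.11 at 120 min and -0.26 ± 0.14 at 240 min. Genes of 300 kb or longer went from -0.10 ± 0.09 through 0.06 ± 0.15 to 0.17 ± 0.14, with no turn within the series. Genes of 100 to 200 kb fell at each step, from -0.27 ± 0.11 through -0.39 ± 0.08 to -0.84 ± 0.11. In the longest class the library medians of each time overlapped with those of the next, and those of 200 to 300 kb overlapped between 60 and 120 min but not between 120 and 240 min.

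The share of called genes changed in the same order. Genes under 10 kb rose in 77 of 6174 cases (1.25%), and genes of 10 to 30 kb in 13 of 3919 (0.332%). The share was 3.02% for 100 to 200 kb (28 of 926), 10.6% for 200 to 300 kb (26 of 245) and 9.96% for 300 kb or longer (24 of 241). Falls went the other way, from 16.7% and 20.7% in the 2 shortest classes to 9.83%, 5.71% and 4.15% in the 3 longest. The number of exons showed a similar order among protein-coding genes, which are longer on average where they have more exons. The median difference was -0.46 for 375 genes of 1 exon and -0.03 for 220 genes of 40 exons or more, whose median length was 136 kb.

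**Figure D2:**
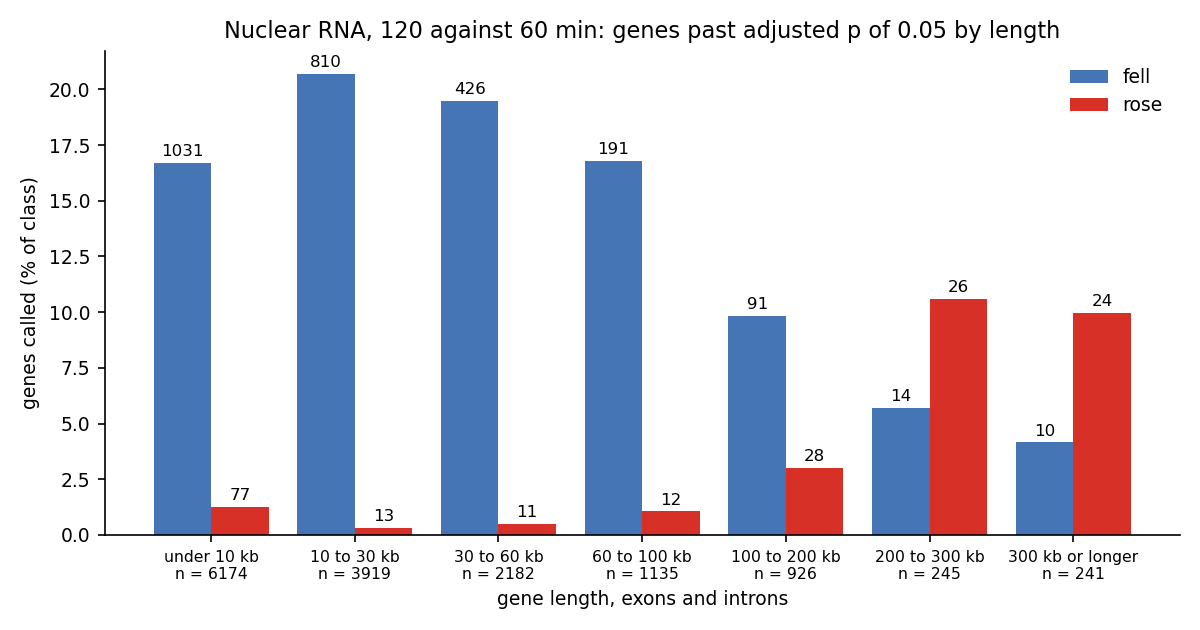
Genes that fell (blue) and rose (red) from 60 to 120 min at an adjusted p under 0.05, as a percentage of the genes in each length class, with the number of genes above each bar. Rises make up 10.6% and 9.96% of the 2 longest classes and 0.332% of the class of 10 to 30 kb.

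The 6 largest rises among genes of at least 100 kb were those of Kif26b, Npas2, Eps8, Pclo, Tex11 and Armc9. Kif26b, an atypical kinesin gene of 410 kb on chromosome 1 (178529125 to 178939200, plus strand, GRCm38), had ratios of 0.703, 0.156 and 0.533 at 60 min and of 3.11, 2.55 and 2.46 at 120 min. It rose 6.95-fold (log2 2.80 ± 0.55 SE, limma adjusted p = 0.025) and reached 14.9, 15 and 13.3 at 240 min. Eps8, which encodes an actin regulator and spans 178 kb on chromosome 6 (137477245 to 137654876, minus strand), had 1.89, 1.86 and 1.91 at 60 min and 7.25, 6.63 and 7.33 at 120 min. It rose 3.75-fold (log2 1.91 ± 0.25, adjusted p = 0.012), and at 240 min it was back at 3.81, 3.15 and 3.47. Npas2, a circadian transcription factor gene of 170 kb, went from 0.364, 0.161 and 0.368 to 2, 0.779 and 1.2 (adjusted p = 0.03). Pclo, whose product organises the presynaptic active zone, Tex11, a meiotic gene, and Armc9, a ciliary gene, rose 3.61-, 3.48- and 3.46-fold. The smallest whole numbers behind these 6 genes were low, between 1 and 10 at 60 min and between 5 and 45 at 120 min.

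Some long genes with more reads also rose from 60 to 120 min, with differing courses after that. Cux1, a homeodomain transcription factor gene of 319 kb on chromosome 5 (136248135 to 136567490, minus strand), had 0.384, 0.379 and 0.344 at 60 min and 1.24, 1.41 and 1.14 at 120 min. It rose 3.41-fold (log2 1.77 ± 0.13, adjusted p = 0.0048), from smallest whole numbers of 39 to 49 to ones of 168 to 189, and stood at 2.26, 2.2 and 2.07 at 240 min. Tcf12, a helix-loop-helix factor gene of 269 kb on chromosome 9, had 2.97, 2.63 and 2.77 at 60 min and 9.17, 7.35 and 6.26 at 120 min (2.69-fold, adjusted p = 0.038). Its nuclear RNA was already above the 0 min level at 60 min in all 3 libraries, and at 240 min it had 2.84, 2.94 and 1.72. Nf1, the neurofibromin gene and an example in the study, spans 242 kb with 58 exons on chromosome 11 (79339693 to 79581612, plus strand). It went from 0.768, 0.807 and 1.06 to 2, 1.96 and 1.66, a 2.15-fold rise (log2 1.10 ± 0.17, adjusted p = 0.017), and was at 1.26, 1.26 and 1.09 at 240 min. Cux1 and Kif26b were still higher at 240 min than at 120 min in all libraries, whereas Eps8, Tcf12 and Nf1 were lower. Under the mitochondrial scaling the rises of Tcf12 and Nf1 no longer passed the threshold.

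**Figure D3:**
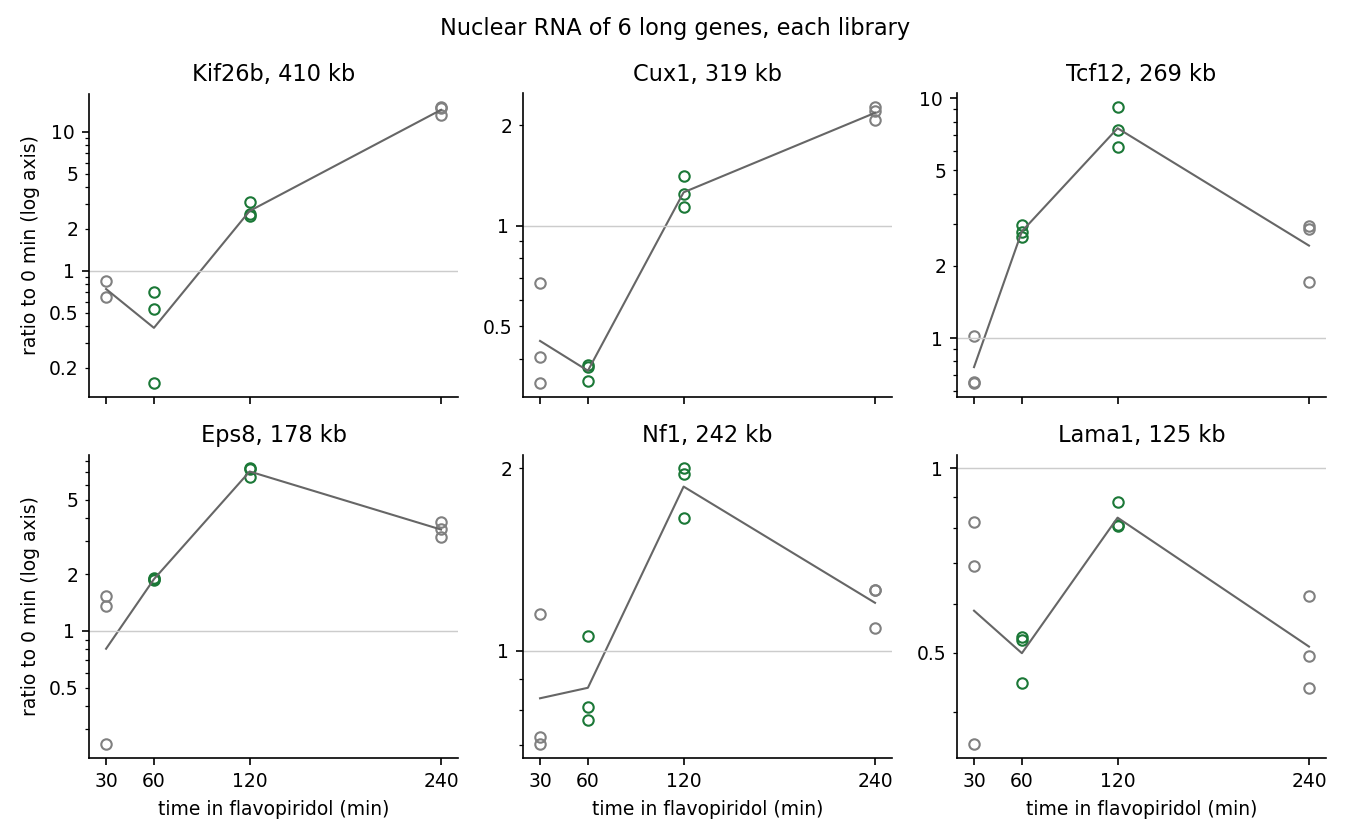
Nuclear ratio to 0 min (log axis) of 6 genes longer than 100 kb in each library, against time; green circles are the libraries at 60 and 120 min, grey circles those at 30 and 240 min, and the line joins geometric means. All 6 genes are higher at 120 than at 60 min with no overlap, Kif26b and Cux1 are highest at 240 min, and the other 4 are highest at 120 min.

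Tfrc, the transferrin receptor gene and another example in the study, is 23.9 kb long and did not pass the threshold. It had 0.388, 0.441 and 0.505 at 60 min and 0.355, 0.284 and 0.294 at 120 min (log2 -0.51 ± 0.18, adjusted p = 0.094).

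The 10 largest rises of any length were mostly those of shorter genes with few reads. Tmem236, a membrane protein gene of 47.5 kb on chromosome 2, stood furthest out, with 0.382, 1.02 and 0.386 at 60 min and 24.8, 23.5 and 22.6 at 120 min. Its smallest whole numbers were 1, 3 and 1 at 60 min and 77, 72 and 76 at 120 min, and it rose 44.5-fold on the fitted scale (log2 5.47 ± 0.45, adjusted p = 0.006). In total RNA it had 6.29, 12.3 and 9.87 at 120 min, and at 240 min its nuclear ratios were 15.5, 12.9 and 16.9. Svopl, a transporter-like gene, rose from 0.609, 0.539 and 0.308 to 9.75, 10.9 and 3.08. Fxyd4, which encodes a regulator of the sodium pump, rose from 0.376, 0.166 and 0.76 to 5.07, 7.39 and 2.63. Cacng4, an auxiliary subunit gene of glutamate receptors, rose from 0.175, 0.155 and 0.708 to 3.62, 3.29 and 2.11, and at 240 min it was back at 0.122, 0.219 and 0.161. Elmo2 (8.03-fold), Ephx3 (7.71-fold), Gjd4 (6.64-fold), Cyb5r2 (6.39-fold) and Dmrta2 (6.01-fold) completed the list beside Kif26b. Of the 10 genes, Elmo2 and Cyb5r2 had the weakest calls, with adjusted p of 0.039 and 0.047, and Cyb5r2 lost its call under ribosomal protein scaling.

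Some short genes that rose lay just behind a long gene on the same strand. This grouping was chosen after the values were seen, so it is given as a description with no test. Of 10093 tested genes under 30 kb, 90 rose (0.892%). Among the 115 whose start lay within 10 kb after the end of a protein-coding gene of 100 kb or longer on the same strand, 11 rose (9.57%) and 7 fell (6.09%). Among the 2221 behind a shorter protein-coding gene at the same distance, 10 rose (0.45%) and 396 fell (17.8%). Within 50 kb the counts were 17 of 336 (5.06%) behind long genes and 30 of 4837 (0.62%) behind shorter ones. Short genes lying inside a gene of 100 kb or longer on the same strand rose in 4 of 453 cases (0.883%).

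Zfp36l2, which encodes an mRNA-destabilizing zinc finger protein, starts 2.13 kb after Thada on chromosome 17 (84183931 to 84187947, minus strand). It had 0.25, 0.144 and 0.236 at 60 min and 0.506, 0.435 and 0.386 at 120 min (2.15-fold, limma adjusted p = 0.039), and Thada itself stayed between 0.97 and 1.2 in all 6 libraries. In total RNA Zfp36l2 was lower at 120 min, with 0.168, 0.162 and 0.125 against 0.234, 0.185 and 0.222, and in the membrane fraction it was higher, with 0.252, 0.338 and 0.29 against 0.208, 0.197 and 0.233. Dmrta2, a DM-domain transcription factor gene on chromosome 4 (109978053 to 109983687, plus strand), starts 14.1 kb after Faf1. It went from 0.174, 0.206 and 0.176 to 1.32, 1.04 and 0.993 (log2 2.59 ± 0.17, adjusted p = 0.0037). Faf1 had 1.56, 1.33 and 1.53 at 60 min and 2.09, 1.88 and 1.8 at 120 min and was not called (adjusted p = 0.12). The mitochondrial carrier genes Slc25a18, 2.39 kb after Cecr2, and Slc25a31, 4.08 kb after Intu, rose by log2 0.98 and 0.52. Amn, 3.94 kb after Traf3, went from 0.281, 0.249 and 0.569 to 0.712, 0.962 and 1.31, and Gjd4 lay 29.5 kb after Ccny. The long neighbours Cecr2, Intu and Ccny were not called, with log2 differences of -0.36, -0.01 and 0.19, and Traf3 was not tested. The library kit keeps the strand, but whether the counting used it is not given in the sources used here, and reads of neighbouring genes cannot be told apart by these values.

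**Figure D4:**
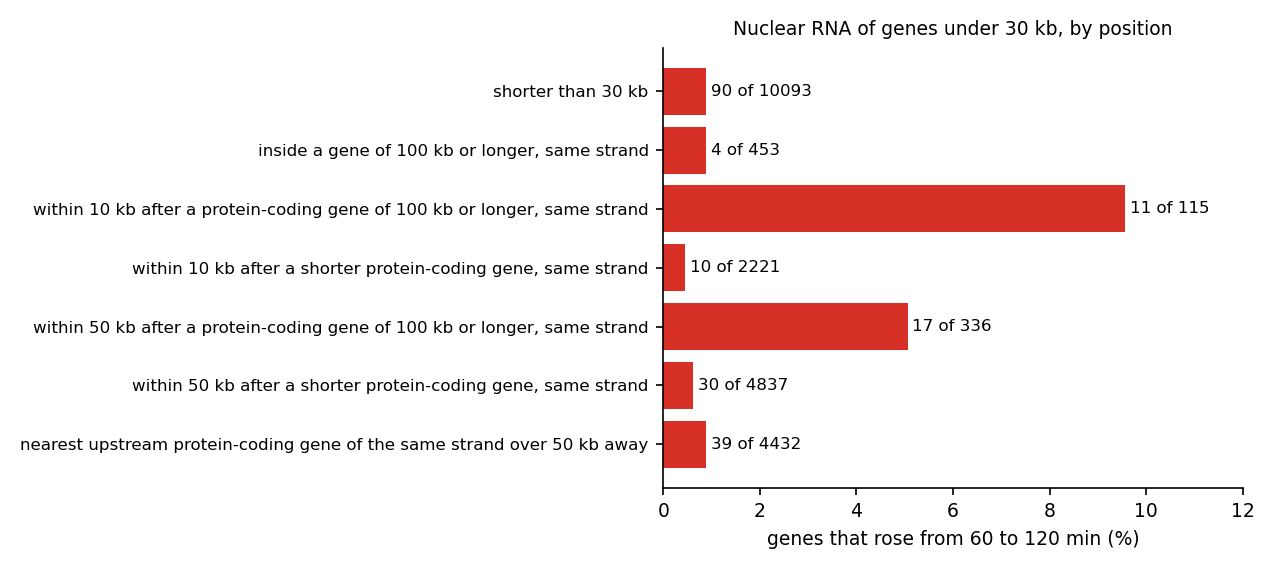
Percentage of tested genes under 30 kb that rose from 60 to 120 min, by their position relative to other genes on the same strand, with the number of risen and tested genes at each bar. Genes within 10 kb after a gene of 100 kb or longer rose in 9.57% of cases, and all other sets shown except the one within 50 kb after a long gene lie below 1%.

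The 10 largest falls were spread over several functions. Wdr48, a cofactor of ubiquitin-specific proteases, had 0.705, 0.696 and 0.766 at 60 min and 0.0453, 0.0287 and 0.0261 at 120 min, a fall of 22.3-fold (log2 -4.48 ± 0.28, limma adjusted p = 0.0036). Its total RNA fell alongside, from 0.517, 0.76 and 0.738 to 0.141, 0.043 and 0.0425. Plod2, a collagen lysyl hydroxylase gene, Klhl2, a ubiquitin ligase adaptor gene, Ints10, which encodes an Integrator subunit, and Sun1, a nuclear envelope protein gene, had log2 differences of -4.43, -4.19, -3.81 and -3.70. Pnisr, an arginine- and serine-rich nuclear speckle protein gene, had 0.48, 0.515 and 0.61 and then 0.0486, 0.0227 and 0.0276, from smallest whole numbers of 650 to 817. Chchd7, Ccdc136, Zfp61 and Cpsf4, the last a subunit of the cleavage and polyadenylation machinery, fell by 3.77, 3.62, 3.39 and 3.36. Klhl2, at 110 kb, was the only 1 of the 10 above 100 kb. All 10 stood between 0.111 and 1.39 in each library at 60 min. Plod2, Chchd7, Ccdc136 and Zfp61 were down to smallest whole numbers of 1 to 3 at 120 min.

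Groups of genes with known roles were then read against the background of 17.4% fallen and 1.29% risen. Their members were listed with earlier results known, and counts are given with no test of the group. Of 29 long chromatin regulators and transcription factors 6 rose (20.7%) and 4 fell (13.8%). This group and the next were listed as long genes, with median lengths of 133 and 207 kb. Among all genes of 100 kb or longer 5.52% rose and 8.14% fell, which is the closer background for both. Beside Cux1 and Tcf12 the rises were those of Bptf, the large subunit of a nucleosome remodeller (1.11), the coactivator Ncoa1 (0.82), Zbtb20 (0.71) and the H3K4 methyltransferase Kmt2c (0.55). Ncoa2 (235 kb) and Ncor1 (142 kb) fell by 1.35 and 0.78, and Arid2 and Setd2 by 0.53 and 0.48. The median of the group was -0.12, and it was positive, at 0.17 and 0.02, with median centring and with ribosomal protein scaling. Of 23 long genes of cytoskeletal linkers and adhesion, Lama1, the laminin alpha-1 gene, rose from 0.525, 0.447 and 0.531 to 0.808, 0.883 and 0.805, while Itga6 and Lama5 fell and the median was 0.04, or -0.35 under the mitochondrial scaling. Lama5 is 49.5 kb long and Lama1 125 kb. Itga6 spans 113 kb. Ncoa2 and Itga6 lost their calls with median centring, Ncor1 and Itga6 with ribosomal protein scaling, and Lama1 with mitochondrial scaling, as did Zfp36l2, Dppa3, Ndufb2 and Zfp827, which are named elsewhere. Lama5 lost its call under each of these scalings.

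Other groups held mostly short regulatory genes. Of 251 numbered Zfp genes, which mostly encode KRAB zinc finger repressors or related proteins, 115 fell (45.8%) and 1 rose. Their median was -0.89, against -0.33 over all genes, and it was -0.59, -1.28 and -0.75 under the other scalings. A scaling shifts all genes of a library alike, so the gap to the median of all genes cannot move with it. Zfp57, a guardian of imprinted loci, had 0.596, 0.546 and 0.619 at 60 min and 0.0865, 0.0724 and 0.0732 at 120 min. The 1 that rose, Zfp827, spans 165 kb and went from 0.221, 0.199 and 0.237 to 0.476, 0.505 and 0.449. Zfp61 and Zfp39 had the largest falls. The median length of the family was 19.2 kb.

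Of 29 immediate early and feedback genes 13 fell (44.8%) and Zfp36l2 rose, with a median of -0.79. Btg1, an antiproliferative gene, went from 0.386, 0.426 and 0.47 to 0.133, 0.101 and 0.11, and Klf10 from 0.196, 0.17 and 0.238 to 0.0787, 0.0709 and 0.0473. Of 21 p53 pathway genes 10 fell (47.6%) and none rose, with a median of -0.46. Cdkn1a, the p21 cell cycle inhibitor, went from 0.167, 0.127 and 0.17 to 0.0546, 0.0391 and 0.0325, and the polo-like kinase gene Plk2 from 0.28, 0.24 and 0.276 to 0.113, 0.095 and 0.068. Of 15 BCL2 family genes 3 fell (20%, near the 17.4% of all genes), the death-promoting Bbc3 and Bid and the survival factor Mcl1, by 1.01, 0.96 and 0.74. Bbc3 lost its call with median centring. Of the members tested, Bbc3, Mcl1, Btg2 and Pmaip1 each stand in 2 of these groups, and Btg2, Bbc3 and Mcl1 are counted as fallen in both.

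Pluripotency factors diverged. Of 22 tested, 7 fell (31.8%) and 1 rose, with a median of -0.63. Klf4 had 0.248, 0.215 and 0.274 at 60 min and 0.0808, 0.0504 and 0.0614 at 120 min, and Zfp42 (Rex1) had 0.0972, 0.0999 and 0.0864 and then 0.0459, 0.0266 and 0.0212. Zfp42 had smallest whole numbers of 7 to 14 at 120 min and lost its call with median centring and with ribosomal protein scaling. Sox2, Klf2, Klf5, Tet2 and Sall4 also fell. Pou5f1, the core factor Oct4, was at 0.967, 1.16 and 1.27 and then at 1.12, 1.36 and 1.2, and Tfcp2l1 at 0.977, 0.977 and 1.12 and then at 1, 1.16 and 1.01, so both stayed near the 0 min level. Dppa3 passed the threshold upward (0.85, 0.879 and 0.716 to 1.67, 1.09 and 1.65, limma adjusted p = 0.042) on smallest whole numbers of 5 to 15.

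Among RNA-processing genes, the splicing regulators had the highest share of falls. Of 30 genes of SR proteins, their kinases and related factors 10 fell (33.3%) and none rose, with a median of -0.42. Among the Srsf genes of the group only Srsf11 fell, and Srsf1 to Srsf7 were not called. The 2 largest falls were those of Pnisr and Rsrc2, which went from 0.58, 0.653 and 0.754 to 0.086, 0.068 and 0.0618. The kinase genes Clk4 and Clk1 followed, by 2.42 and 2.24, and then Prpf38b, Luc7l, Luc7l3, Srsf11, Prpf4b and Srpk1. Of 21 hnRNP genes 3 fell (14.3%), Hnrnph2, Hnrnpa2b1 and Hnrnpl, and the median was -0.13, positive at 0.16 and 0.01 under median centring and ribosomal protein scaling. Of 32 genes of mRNA export and nuclear decay 6 fell (18.8%), led by Rbm26 (log2 -1.41) and the export receptor gene Nxf1 (log2 -1.37), which went from 0.44, 0.458 and 0.509 to 0.202, 0.171 and 0.174. The median of these 32 was -0.27, and 0.02 with median centring.

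Genes of the drug's own target fell in 3 of 27 cases (11.1%). Hexim1 and Mepce, which encode parts of the 7SK particle that holds P-TEFb inactive, went from 0.581, 0.632 and 0.686 to 0.352, 0.301 and 0.291 and from 0.188, 0.156 and 0.235 to 0.081, 0.071 and 0.074. Leo1, a PAF complex subunit, fell by 0.61. The group's median was -0.23, and 0.06 with median centring. Of 29 mitotic genes 5 fell (17.2%), with a median of -0.41. Birc5, the survivin gene, went from 0.0339, 0.0394 and 0.0463 to 0.00423, 0.00483 and 0.00634, and the spindle checkpoint kinase gene Ttk from 1.36, 1.41 and 1.45 to 0.551, 0.656 and 0.353. Of 31 long noncoding RNAs 5 fell (16.1%) and none rose, with a median of -0.40. Mir124a-1hg fell by 2.39, and Kcnq1ot1, an unspliced RNA that silences an imprinted cluster, went from 1.46, 0.912 and 1.04 to 0.445, 0.411 and 0.299. Neat1, the scaffold RNA of paraspeckles, had 0.757, 0.87 and 0.8 at 60 min and 0.844, 0.819 and 0.754 at 120 min, with overlapping groups.

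Stable housekeeping families had few calls. Of 67 cytosolic ribosomal protein genes 3 fell (4.48%, namely Rpl29, Rps9 and Rps28) and none rose, with a median of -0.10. Rpl29 rested on smallest whole numbers of 5 or fewer, and genes of this family share reads with their pseudogenes, which the counting could have split. Of 75 nuclear genes of the respiratory chain and ATP synthase 1 fell (Atp5s) and 1 rose, with a median of -0.13. The 1 that rose, the complex I subunit gene Ndufb2, went from 0.686, 0.646 and 0.951 to 1.51, 1.12 and 1.28, and it was also higher in total RNA and cytosol, by log2 0.95 and 0.70. Both medians turned positive with median centring, at 0.20 and 0.16, and with ribosomal protein scaling, at 0.04 and 0.01. Of the 13 mitochondrially encoded mRNAs 7 were tested, none was called, and their median was 0.40, or 0.01 under their own scaling. Replicate 1 of 120 min stood apart in them, for example with 3.71 for mt-Nd1 against 1.05 and 0.916 in the other two.

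**Figure D5:**
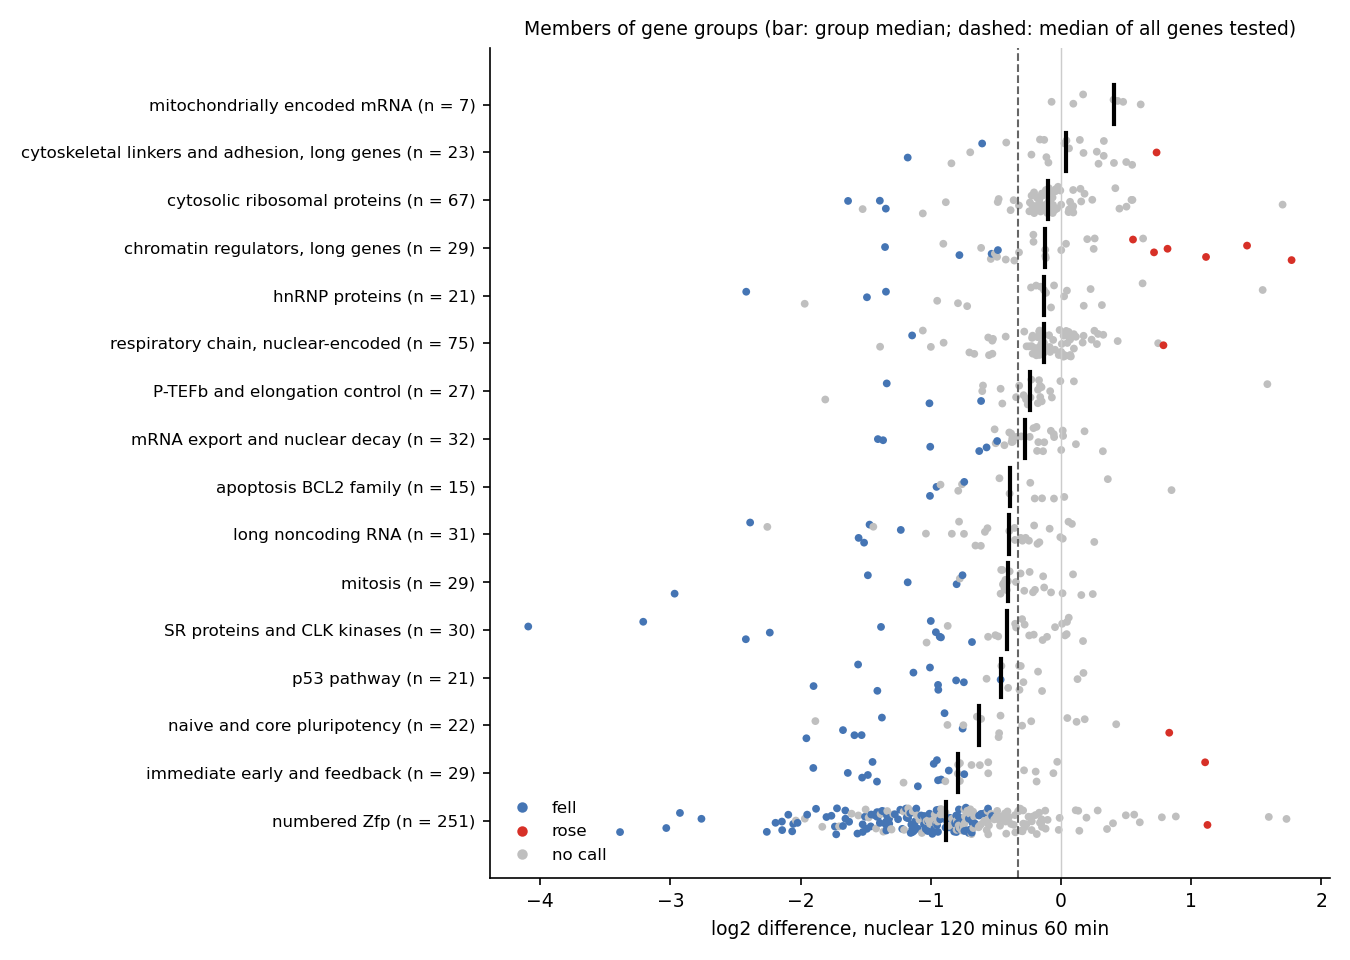
Log2 difference of nuclear RNA, 120 minus 60 min, for each tested member (point) of 16 gene groups, ordered by group median (black bar); blue points fell, red points rose and grey points were not called, and the dashed line is the median of all 14862 genes. The numbered Zfp genes lie furthest left and the long genes of cytoskeletal linkers and adhesion furthest right among the nuclear-encoded groups.

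The other fractions give libraries that the nuclear test did not use. Total RNA includes the nuclear RNA, and the fractions of 1 time and replicate number may come from 1 harvested culture. Of the 78 long genes that rose in the nucleus, 73 had values in all 6 total libraries at 60 and 120 min, where 57 had a positive difference (78.1%) and the median was 0.24. In the membrane fraction it was 58 of 75 (77.3%) with a median of 0.26. In the cytosol 36 of 74 (48.6%) were positive and the median was -0.01. Over all genes tested, 15.7%, 19.8% and 14.7% were positive in total RNA, membrane and cytosol. These shares cover genes of any length, and those of all genes of 100 kb or longer, the closer background, are not given here. In total RNA the median of genes of 300 kb or longer went from -0.41 at 60 min to -0.42 at 120 min. That of genes under 10 kb went from -0.47 to -0.88. Of the listed genes among the 113 shorter ones that rose, 57.8%, 61.8% and 56.6% were positive there. Cux1 was higher at 120 min without overlap, going from 0.262, 0.23 and 0.358 to 0.663, 1.09 and 1.02 in total RNA and from 0.442, 0.36 and 0.487 to 1.04, 0.78 and 0.827 in the cytosol. Nf1 was lower there, with 0.672, 0.645 and 0.759 in the cytosol at 60 min and 0.571, 0.57 and 0.515 at 120 min. The contrast between genes of 300 kb or longer and genes under 10 kb was 0.06 ± 0.08 in total RNA at 60 min, 0.07 ± 0.02 in cytosolic and 0.15 ± 0.10 in membrane RNA. At 120 min it was 0.46 ± 0.15, 0.31 ± 0.07 and 0.48 ± 0.06, below the 1.29 ± 0.10 of the nucleus.

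Whether the change differed between nucleus and cytosol was tested by an interaction over the 12282 genes listed in all 12 libraries. The fractions of 1 time and replicate number may come from 1 harvested culture, and the test took the 12 libraries as independent. With time and replicate number as a block none of the calls below was left, and 2291 genes had an unadjusted p under 0.05 in limma. In the nucleus 69 genes had a lower difference than in the cytosol (0.562% of those tested) and 65 a higher one (0.529%). Of these 65 genes, 36 were 100 kb or longer. Higher differences were found for 19 of 800 genes of 100 to 200 kb (2.38%), 14 of 201 genes of 200 to 300 kb (6.97%) and 3 of 185 genes of 300 kb or longer (1.62%), and lower ones for 3, 0 and 0. The highest were those of Npas2 (4.01 ± 0.63, adjusted p = 0.026), Dmrta2 (3.67 ± 0.50, 0.018) and Rftn2, a lipid raft protein gene (3.32 ± 0.58, 0.033). Cytosolic Npas2 went from 0.906, 0.781 and 0.732 to 0.323, 0.259 and 0.127 while the nuclear RNA rose. Nf1 was also among them (1.43 ± 0.19, 0.017). The lowest were Capzb, an actin capping protein gene (-2.47 ± 0.36, 0.023), the splicing-related Sugp2 (-2.24 ± 0.42, 0.039) and the antisense transcript Nespas (-2.14 ± 0.26, 0.013). Nuclear Capzb went from 0.353, 0.327 and 0.3 to 0.0542, 0.0549 and 0.0499, and its cytosolic ratios of 0.868, 0.786 and 1.26 and then 0.581, 0.942 and 1.14 overlapped. These counts rose to 5321 lower and fell to 7 higher under the mitochondrial scaling. Without any single one of the 12 libraries they were at most 41 each way, and none was left without 60 min nuclear replicate 1, where 1659 genes had an unadjusted p under 0.05 in limma.

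The interval was also set against the 2 h that followed, as the slope from 60 to 120 min minus the slope from 120 to 240 min, in log2 per hour. Of 13709 genes listed at all 3 times, 82 had a higher slope in the first interval (0.598%) and 81 a lower one (0.591%). Genes of 200 to 300 kb had a higher slope in 16 of 235 cases (6.81%) and those of 300 kb or longer in 6 of 236 (2.54%). The largest were Tmem236 (5.80 ± 0.62, limma adjusted p = 0.013), Cacng4 (5.54 ± 0.73, 0.025) and Svopl (4.05 ± 0.66, 0.04), and Cux1 (1.38, 0.015), Nf1 (1.42, 0.037) and Eps8 (2.42, 0.015) passed too. The lowest were Tha1, a threonine aldolase gene (-3.91, 0.037), Lama3 (-3.41, 0.037) and the fatty acid receptor gene Ffar1 (adjusted p = 0.021), all with smallest whole numbers of 1 to 3 at 120 min. Of the long genes that rose from 60 to 120 min, 26 of 78 rose further to 240 min, with a median change of -0.24, and of the shorter ones 31 of 111, with a median of -0.55. Over all genes tested 21.4% went up and the median was -0.49, and genes chosen for high values at 120 min share those libraries with this later change. Without any single one of the 9 libraries the counts were at most 31 lower and 35 higher, and they were 1 and 4 without 120 min replicate 2.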

How the data were processed

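Processing notes of the submitters name STAR 2.7.6, RSEM 1.3.3 and the mm10 build for these polyadenylated RNA libraries. The authors scaled libraries on genes of long known half-life and divided by the level at 0 min, so the deposited values are ratios, although their heading names read counts, and genes at 0 are not listed. That scaling takes the reference genes as unchanged. The planned test for this unit, limma 3.58.1 under R 4.3.3, was a two-sided moderated test (eBayes with a mean trend, p adjusted by Benjamini-Hochberg) on log2 of the ratio with no pseudocount.

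Groups came from the sample titles, which give 240 min as the last time, while the protocol text names another. Gene positions, lengths and exon numbers come from the GENCODE annotation of GRCm38. Predicted genes and pseudogenes were not named. Named genes were the 10 largest rises and falls with an adjusted p under 0.05 and no overlap of groups, the 6 largest rises of at least 100 kb, up to 2 risen and 2 fallen members per group, the 3 largest differences each way in the other tests, and Nf1 and Tfrc. Other group members are given as lists of calls or for contrast. Myc was not analysed here, and 1 further group of long genes is not reported here. The members and groups were chosen with earlier results of these data known. The fits were tested on simulated data. Alternatives covered scaling, filters, a pseudocount of 0.1, eBayes without trend, a block of replicate number and left-out libraries. Python 3.11.15 was used for gene positions. The smallest whole numbers were used as a guide to precision and as 1 filter, never as counts in a test. Replicates are separately passaged cultures, and p-values measure their spread.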

Additional observations from a re-analysis of the deposited data

Results flagged for a closer look

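Between nucleus and cytosol the change from 60 to 120 min differed, by the limma interaction, for 69 genes with a lower and 65 with a higher difference in the nucleus, of 12282, and none was left with time and replicate number as a block. Between the interval from 60 to 120 min and the one from 120 to 240 min the nuclear slope differed for 81 genes that were lower and 82 that were higher in the first, of 13709. These were picked out because 2 fractions or 2 intervals differ by a test of the difference itself. Groups of 3 libraries are too small for a check of single outlying values.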

How the results depend on the processing

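Beside 2583 genes fallen and 191 risen, centring each library on its median gene gave 1211 and 734, mitochondrial scaling 57 risen, and ribosomal protein scaling 1201 fallen. All 12 nuclear libraries in 1 fit gave 1617 and 95 of 13343 genes. Left-out libraries gave 0 to 2016 fallen and 0 to 123 risen. The 0 came from leaving out replicate 1, 2 or 3 at both times, where 4380, 4031 and 3526 genes had an unadjusted p under 0.05, against 5388 in all. A replicate block gave 438 and 50. Same-numbered libraries deviated together with correlations of 0.0369, -0.00291 and 0.0143, and the labels do not say that a number marks the same culture at each time. Whether same-numbered libraries are paired is therefore not known, and the counts without a block take them as independent. With genes whose smallest whole numbers averaged at least 10, a filter chosen after seeing the data like the single left-out libraries, 3401 of 11059 fell and 252 rose. Of 70 named genes with a call none changed sign in any alternative. They were named for groups that do not overlap, so the sign could not turn where libraries were left out, and it is no support there. Of the 70, 9 lost the call with median centring, 10 with each other scaling, 11 in the fit of 12 libraries and 40 with the replicate block. Without single libraries 15, 39 and 36 were lost (replicates 1, 2 and 3 of 120 min) and 44, 32 and 58 (those of 60 min), and all 70 without any replicate number.

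For nucleus against cytosol (69 lower, 65 higher), median centring gave 241 and 271, mitochondrial scaling 5321 and 7, ribosomal protein scaling 115 higher, the pseudocount 31 lower, 2 of 3 libraries 45 and 38, genes listed in all 48 libraries 105 higher, and the filter on whole numbers 118 and 134. The replicate block left 0 and 0 (1761 genes at an unadjusted p under 0.05), as did a block of time and replicate number chosen after seeing the data (2291 genes), and left-out libraries 0 to 41 both ways. For the slopes (81 lower, 82 higher), median centring gave 212 and 236, mitochondrial scaling 1547 and 21, ribosomal protein scaling 150 higher, the pseudocount 422 and 153, 2 of 3 libraries 39 and 42, all 48 libraries 133 lower, the filter 177 and 144, the replicate block 6 and 7, and left-out libraries 0 to 31 lower and 0 to 35 higher.

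By length, from the shortest class to the longest, the median differences were -0.076, -0.11, -0.04, 0.029, 0.22, 0.38 and 0.41 with median centring, -0.76, -0.80, -0.73, -0.66, -0.47, -0.31 and -0.28 with mitochondrial scaling, and -0.23, -0.27, -0.20, -0.13, 0.062, 0.22 and 0.25 with ribosomal protein scaling. With a replicate left out they ranged from -0.47 to -0.30 (10 to 30 kb), -0.41 to -0.22 (30 to 60 kb) and -0.13 to 0.032 (100 to 200 kb). Mitochondrial scaling without 120 min replicate 1, chosen after seeing the data, gave -0.48 for genes under 10 kb. The difference between the longest and the shortest class, 0.48, cannot move with a scaling, and was 0.47 to 0.51 with a replicate number left out and 0.52 in protein-coding genes. The causes were not tested. The files state no depth, and 25.6% of genes tested had smallest whole numbers averaging under 10, where 1 read moves a ratio most.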
